A study of Sus scrofa with 3 samples.

Results

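Tropomyosins and the smooth muscle type contractile genes were followed across 3 arrays of PIE cells, a non-transformed porcine cell line, labelled as coming from the intestinal epithelium of an unsuckled newborn. The genes are the tropomyosins TPM1, TPM2, TPM3 and TPM4, the actins ACTA2 and ACTG2, the actin-binding proteins TAGLN and CNN1, the myosin light chain MYL9 and the sarcomere protein MYOZ2. A probe was taken where the array's gene name or description named one of these 10 genes, which gave 61 of 43603 probes. No probe was named for ACTG2 or TAGLN, so 8 of 10 genes have values. The genes were chosen by differences measured on these same arrays, so their differences from ETEC alone are descriptions here and carry no test.

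Cells of all 3 groups were grown for 3 days on collagen-coated plates and received ETEC PAMPs (pathogen-associated molecular patterns from enterotoxigenic Escherichia coli) for the last 12 h before RNA was taken. The TL2937+ETEC group had Lactobacillus jensenii TL2937 for 48 h beforehand, and the TL2766+ETEC group had Lactobacillus plantarum TL2766 for 48 h, both washed off before the PAMPs were added. The ETEC group had no lactobacilli. Each group is 1 culture on 1 single-colour array, so there was no spread between replicates, no p-value is given, and having 1 array a group limits the precision throughout. Unchallenged cells were not analysed here.

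The 3 arrays were alike in brightness. The 75th percentiles of processed intensity were 503 (TL2937+ETEC), 481 (TL2766+ETEC) and 459 (ETEC), and between 60.9% and 62.5% of the spots were flagged by the scanner software as well above background. Levels below are scaled intensities, which are intensities divided by the array's 75th percentile and multiplied by the geometric mean of the 3 percentiles. The lowest scaled intensity that counted as well above background was 11.6 (TL2937+ETEC), 11.8 (TL2766+ETEC) and 12.9 (ETEC). A difference is in log2 units, so -1 is 2-fold lower, and a probe counts as measured in a comparison where it was well above background on both arrays. The only error that the arrays hold is between spots. Over 25 probes with 5 spots each, the median SD of a log2 difference was 0.11 (TL2937+ETEC against ETEC), 0.078 (TL2766+ETEC against ETEC) and 0.087 (TL2937+ETEC against TL2766+ETEC), with highest values of 0.39, 0.70 and 0.52. These SDs do not cover the variation between cultures.

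The markers did not bear out the epithelial label. Of 14 epithelial markers on the array, 5 were well above background on all 3 arrays and 6 on none, among them EPCAM, by its brightest of 18 probes, and KRT18. KRT8 was at 18.0 and 23.9 in the lactobacillus cultures (TL2937+ETEC, then TL2766+ETEC) and 19.9 in ETEC, near the lowest detected signal, while the tight junction genes CLDN1 and OCLN were well above it. Of 11 endothelial markers, 10 were well above background on all 3 arrays, with PECAM1 at 84031 and 85367 in the lactobacillus cultures and 86702 in ETEC. Of 9 fibroblast and myofibroblast markers, 8 were well above background on all 3 arrays. Among these VIM, FN1 and S100A4 were bright, at 251703, 267648 and 2899 in ETEC. COL1A2, PDGFRB, DCN, LUM and THY1 were dim, between 30.1 and 82.9 in ETEC. Of 4 smooth muscle markers, 3 were well above background on all 3 arrays. Smooth muscle DES read 2223 and 2181 in the lactobacillus cultures and 2531 in ETEC, but 1 of its 4 probes was detected on all 3 arrays. SMTN read 8329 and 9572 in the lactobacillus cultures and 8580 in ETEC, and MYLK 26026 and 27773 against 21620 in ETEC. The fourth, MYOCD, the cofactor that defines smooth muscle transcription, was not above background on any array. The cells are called PIE cells throughout.

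Tropomyosins are coiled-coil dimers that lie along the actin filament and set which myosins and other proteins can bind it. The genes TPM1 to TPM4 each make several isoforms through alternative promoters and exons, so that high molecular weight forms mark stress fibres and muscle while shorter forms serve the general cytoskeleton. ACTA2, ACTG2, TAGLN, CNN1 and MYL9 are known as the contractile set of smooth muscle and myofibroblasts, and many of them are targets of serum response factor (SRF) with its myocardin-related cofactors (MRTFs), which respond to actin assembly. MYOZ2 (calsarcin-1) is a Z-disc protein of heart and slow skeletal muscle.

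The probes are strands of 60 bases. Those shown first carry the TPM1 result, the brightest TPM1 probe and the pair that lies on either side of the step described further on, in which capitals mark the run of 23 bases that both probes hold. The bases after that run differ between the pair. Start positions are those the array files give along the transcript each probe was designed on.
TPM1 probe at base 331: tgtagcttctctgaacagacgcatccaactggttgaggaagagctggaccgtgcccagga
TPM1 probe at base 798: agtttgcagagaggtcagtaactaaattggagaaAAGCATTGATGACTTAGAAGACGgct
TPM1 probe at base 832: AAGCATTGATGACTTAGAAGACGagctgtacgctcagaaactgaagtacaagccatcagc

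Stretches in which probes of different tropomyosin genes resemble each other are shown next, since shared sequence decides whether one gene's probe could read another's transcript. Capitals in the TPM3 and TPM4 probes mark the bases that equal the aligned base of the TPM1 probe at base 709, which were 36 of 45 aligned bases for TPM3 and 35 of 46 for TPM4.
TPM1 probe at base 709: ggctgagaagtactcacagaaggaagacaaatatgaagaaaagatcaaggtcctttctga
TPM3 probe at base 556: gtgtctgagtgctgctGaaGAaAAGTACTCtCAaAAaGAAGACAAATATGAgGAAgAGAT
TPM4 probe at base 507: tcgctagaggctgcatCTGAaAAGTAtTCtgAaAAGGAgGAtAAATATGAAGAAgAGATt
No TPM1 probe was more than 80% identical to a probe of another name over an ungapped overlap of at least 40 bases, and the median over the 21 probes for the closest such probe was 62.5%. These comparisons are between probes, and the transcripts of the other tropomyosins were not searched. Whether a TPM1 probe could read another tropomyosin's RNA was therefore not tested. The tropomyosin genes are described separately, as the array names them.

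TPM1 was lower in both lactobacillus cultures than in ETEC on every one of its 21 probes. The brightest, at base 331, read 16357 in TL2937+ETEC and 17501 in TL2766+ETEC, against 38039 in ETEC. That is 2.33-fold lower with TL2937 and 2.17-fold lower with TL2766. On all 21 probes both lactobacillus values lay below the ETEC value. Of all measured probes, 53.0% were below ETEC with TL2937 and 49.1% with TL2766, and the share below in both was not counted. The median over the 21 probes was -1.04 in TL2937+ETEC and -1.06 in TL2766+ETEC, where the median over all measured probes was -0.015 and 0.0038. In bulk RNA, fewer cells that express a gene and less of its RNA per cell cannot be told apart.

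**Figure D1:**
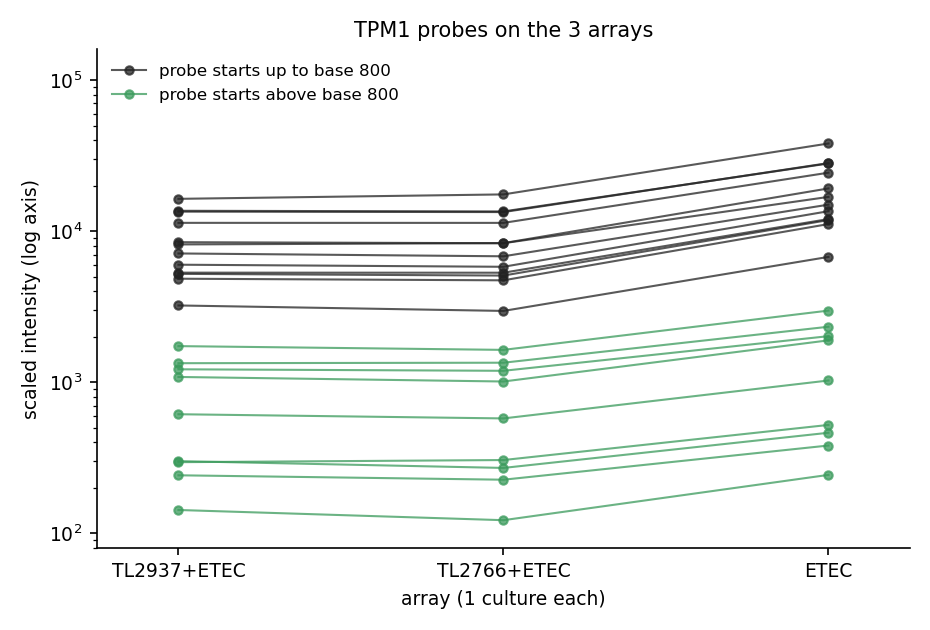
Scaled intensity (log axis) of each of the 21 TPM1 probes on the TL2937+ETEC, TL2766+ETEC and ETEC arrays, with 1 line per probe, black for probes starting up to base 800 and green for probes starting above it. Every line is highest at ETEC, and the brightest probe reads 16357, 17501 and 38039.

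With TL2937, 12 of the 52 measured probes of all member genes were at least 2-fold lower than in ETEC, where 0.302% of all 25801 measured probes were, and none was at least 2-fold higher, against 0.267% of all. With TL2766, 14 of 50 were at least 2-fold lower, where 0.344% of all 25615 measured probes were, and none was at least 2-fold higher, against 0.34%. Of these, 11 and 12 were TPM1 probes and 1 and 2 were MYOZ2 probes. All 21 TPM1 probes were at least 1.5-fold lower in both cultures, which 2.34% (TL2937+ETEC) and 2.21% (TL2766+ETEC) of all measured probes were. Both comparisons use the same ETEC array, so they are not independent of each other.

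The size of the difference was not the same along the transcript. The 12 TPM1 probes that start between bases 218 and 798 had a median difference of -1.14 in TL2937+ETEC and -1.16 in TL2766+ETEC, which is 2.20-fold and 2.23-fold lower. For the 9 probes that start between bases 816 and 1067 the medians were -0.77 and -0.79, or 1.71-fold and 1.73-fold lower, and none of the 9 reached 2-fold. The boundary at base 800 was chosen after the values were seen. The ranges of the sets did not overlap with TL2937 (-1.23 to -0.996 against -0.82 to -0.62) nor with TL2766 (-1.24 to -1.02 against -0.997 to -0.75).

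In the first set, the probe nearest the start of the transcript, at base 218, read 8163 in TL2937+ETEC and 8327 in TL2766+ETEC, against 19174 in ETEC. At base 490 the probe read 7114 and 6812 in the lactobacillus cultures and 14975 in ETEC. The first was 2.35-fold lower with TL2937 and 2.30-fold lower with TL2766, and the second 2.10-fold and 2.20-fold lower.

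In a cluster of 4 probes between bases 627 and 682 lay the 3 lowest values with TL2766. The probe at base 627 read 4840.2 in TL2937+ETEC and 4723 in TL2766+ETEC, against 11137 in ETEC, a difference of -1.20 and -1.24. Those at bases 630, 663 and 682 were all at -1.18 with TL2937 and between -1.18 and -1.22 with TL2766. Probes of this cluster overlap in sequence and are not separate measurements.

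Nearer the boundary the differences lay between -1.10 and -0.996 with TL2937 and between -1.19 and -1.02 with TL2766. At base 709 the probe read 3220 in TL2937+ETEC and 2963 in TL2766+ETEC, against 6750.4 in ETEC. At base 735 the probe read 11343 and 11338 in the lactobacillus cultures and 24372 in ETEC. At bases 785 and 786 the differences were -1.04 and -1.07 with TL2937 and -1.06 and -1.08 with TL2766. The last probe of the set, at base 798, read 8447 in TL2937+ETEC and 8317 in TL2766+ETEC, against 16850 in ETEC, which is -0.996 and -1.02.

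Past the boundary the probe at base 816 read 242 in TL2937+ETEC and 226 in TL2766+ETEC, against 381 in ETEC, or -0.65 and -0.75. At base 829 the probe read 300.1 and 270.5 in the lactobacillus cultures and 462 in ETEC. The probe at base 832, which shares 23 bases with the one at 798, read 295 in TL2937+ETEC and 305 in TL2766+ETEC, against 521 in ETEC, and its difference was -0.82 and -0.77. At base 837 lay the dimmest TPM1 probe and the one on which the lactobacillus cultures differed most, with 142 in TL2937+ETEC and 122 in TL2766+ETEC, against 243 in ETEC.

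The 5 probes nearest the end of the transcript lay close together. Among them, the probe at base 894 read 613 in TL2937+ETEC and 575 in TL2766+ETEC, against 1026 in ETEC. That at base 1030 was the brightest of them, with 1732 and 1636 in the lactobacillus cultures and 2978 in ETEC. Over all 5, including those at bases 1057, 1064 and 1067, the difference lay between -0.81 and -0.73 with TL2937 and between -0.91 and -0.76 with TL2766.

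**Figure D2:**
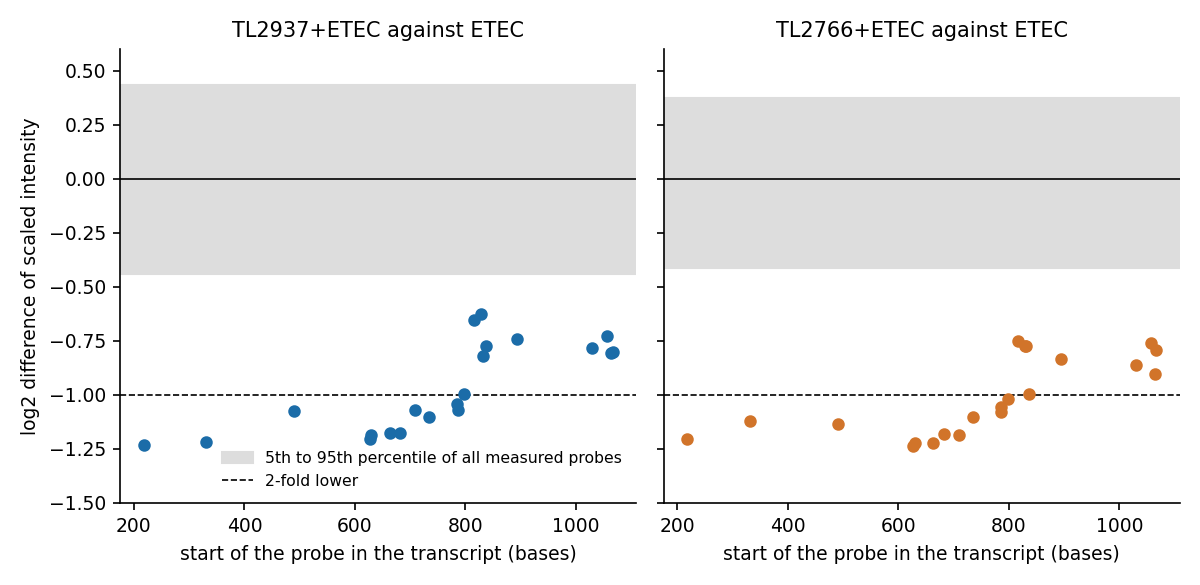
Log2 difference of scaled intensity from ETEC for the 21 TPM1 probes by the start of the probe in the transcript in bases, TL2937+ETEC left and TL2766+ETEC right. The grey band spans the 5th to 95th percentile of all measured probes (-0.44 to 0.44 and -0.41 to 0.38), the dashed line is 2-fold lower, and all probes lie below the band, with those starting above base 800 nearer to it.

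As a description across the 21 probes, Pearson's r between the start position and the difference was 0.76 for TL2937+ETEC (Spearman's rho 0.86) and 0.72 for TL2766+ETEC (rho 0.83). Probes are not independent replicates, since they share the arrays and, for 16 of 21, a run of at least 20 bases with another TPM1 probe. Intensity moved with position. Scaled intensity in ETEC was 6750.4 to 38039 in the first set and 243 to 2978 in the second, and r between the mean log2 intensity and the difference was -0.86 for TL2937+ETEC and -0.75 for TL2766+ETEC. Within the 12 probes of the first set, r with intensity was 0.096 for TL2937+ETEC and 0.66 for TL2766+ETEC, and r with position was 0.69 and 0.39. Within the 9 of the second, r with intensity was -0.39 and 0.16, and r with position was -0.48 and -0.055. Neither relation kept its direction within both sets in both comparisons. Between the sets, position and intensity cannot be told apart, and which transcripts or exons each probe reads was not analysed here. The spots of the TPM1 probes lay in rows 30 to 501 of 532 and columns 1 to 84 of 85, across the whole array.

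Of 61 symbols with at least 10 measured probes, TPM1 had the lowest median in both comparisons, and the next was CTSS, the lysosomal protease cathepsin S, at -0.44 with TL2937 and SDC2, a cell-surface proteoglycan, at -0.33 with TL2766. The lactobacillus cultures read alike. Between TL2937+ETEC and TL2766+ETEC the 21 TPM1 probes had a median difference of 0.035, with a range of -0.098 to 0.22, and 17 of 21 were higher with TL2937. No member probe was at least 2-fold different in either direction in this comparison, where 0.243% of all 25973 measured probes were lower with TL2937 and 0.162% were higher. With 1 culture each, a difference of this size cannot be separated from variation between cultures.

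One further probe, on a contig described as alpha-tropomyosin, was kept apart from TPM1 because the array gives it no gene name. It read 152 in TL2937+ETEC and 133 in TL2766+ETEC, against 228 in ETEC. That is 1.501-fold and 1.71-fold lower, in the range of the TPM1 probes that start above base 800 with TL2766 and just outside it with TL2937.

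The other tropomyosins did not share the size of the TPM1 difference, and none of their 14 probes was 1.5-fold lower in either culture. None was 1.5-fold higher either, where 2.11% of all measured probes were with TL2937 and 1.67% with TL2766. TPM4 read 42513 in TL2937+ETEC and 47186 in TL2766+ETEC, against 49284 in ETEC, on its brightest probe. All 4 TPM4 probes were below ETEC in both cultures, with medians of -0.20 and -0.076. Of all measured probes, 53.0% were below ETEC with TL2937 and 49.1% with TL2766. TPM3 makes both slow muscle and cytoskeletal forms, and its brightest probe read 20330 in TL2937+ETEC and 21314 in TL2766+ETEC, against 20827 in ETEC. The 5 TPM3 probes straddled 0 with TL2937 (2 lower, 3 higher, median 0.016) and were all higher with TL2766 (0.033 to 0.24, median 0.099).

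The TPM3 probe at base 556, which aligns with the TPM1 probe at base 709 at 36 of 45 bases, read 10520 in TL2937+ETEC and 11486 in TL2766+ETEC, against 9714 in ETEC. It was higher in both lactobacillus cultures, by 0.11 and 0.24, where that TPM1 probe was lower by 1.07 and 1.19 log2 units. TPM2, the beta-tropomyosin of muscle and fibroblasts, was dim on all 5 probes. Its brightest, at base 744, read 197 in TL2937+ETEC and 190.1 in TL2766+ETEC, against 214 in ETEC. The 5 probes had medians of -0.14 and -0.17, and the probe at base 195 went apart, with 55.0 in TL2937+ETEC and 79.8 in TL2766+ETEC, against 60.7 in ETEC.

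**Figure D3:**
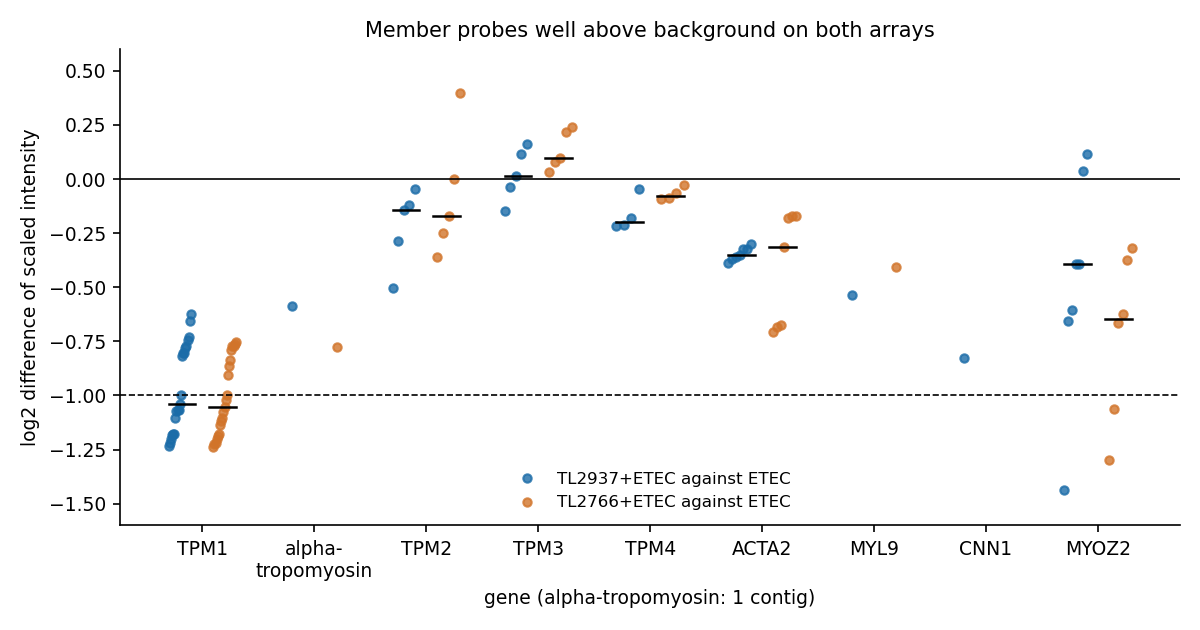
Log2 difference of scaled intensity from ETEC for every member probe that was well above background on both arrays, by gene, with TL2937+ETEC (blue) left of TL2766+ETEC (orange). Black bars are medians over probes, the dashed line is 2-fold lower, and TPM1 (median -1.04 and -1.06) lies apart from TPM2, TPM3 and TPM4.

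ACTA2, the alpha actin of smooth muscle, was lower in both lactobacillus cultures on all 7 probes, where 53.0% (TL2937+ETEC) and 49.1% (TL2766+ETEC) of all measured probes were. Its brightest probe, at base 1417, read 41882 in TL2937+ETEC and 47431 in TL2766+ETEC, against 53721 in ETEC. With TL2937 the 7 probes agreed closely, between -0.39 and -0.30 with a median of -0.35, or 1.28-fold lower. With TL2766 they formed separate sets. Those at bases 211, 1505 and 1530 were 1.61-, 1.60- and 1.63-fold lower, and the other 4 were between 1.13- and 1.24-fold lower.

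The probe at base 1505 read 4353 in TL2937+ETEC and 3478 in TL2766+ETEC, against 5550 in ETEC, so that TL2766+ETEC was the lowest of the 3. At base 880 the probe read 10477 and 11631 in the lactobacillus cultures and 13108 in ETEC, so that TL2937+ETEC was the lowest. Between the lactobacillus cultures the first 3 probes were higher with TL2937 by 0.30, 0.32 and 0.38, and the other 4 were lower by 0.054 to 0.18. One of the 4, at base 593, closely resembled a probe of ACTA1, the skeletal muscle actin, and cannot be assigned to ACTA2 alone. It read 10305 in TL2937+ETEC and 11257 in TL2766+ETEC, against 12673 in ETEC. The ACTA2 probes at bases 880 and 903 also had an ACTA1 probe as their closest match, at 67.8% and 64.9%.

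MYL9, the regulatory light chain whose phosphorylation starts contraction in smooth muscle and stress fibres, had 1 probe, matched by its description. It read 25409 in TL2937+ETEC and 27772 in TL2766+ETEC, against 36811 in ETEC. That is 1.45-fold and 1.33-fold lower, short of 1.5-fold, and the spread between cultures is not known.

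CNN1, or calponin 1, which binds actin and slows its cycling with myosin in smooth muscle, was at the edge of detection. Of its 5 probes, 1 was well above background anywhere. That probe read 15.4 in TL2937+ETEC and 15.0 in TL2766+ETEC, against 27.4 in ETEC. It was 1.77-fold lower with TL2937. With TL2766, where it was not well above background, the ratio to its own dim value was 1.82-fold lower, which is not a bound. With a normexp background correction and an offset of 50, the difference with TL2937 was -0.20, short of 1.5-fold. That offset is larger than the probe's own intensity, so it shrinks any difference and cannot show whether this one holds. The other 4, of which 3 were matched by the description, were not well above background on any array.

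MYOZ2 was matched through 12 probes that the array describes as calsarcin 1. All were dim, and 7 were measured with TL2937 and 6 with TL2766. The probe at base 390 read 13.0 in TL2937+ETEC and 14.4 in TL2766+ETEC, against 35.3 in ETEC, which is 2.71-fold and 2.46-fold lower, with both lactobacillus values close to the lowest detected signal. The brightest probe, at base 993, read 39.6 in TL2937+ETEC and 28.9 in TL2766+ETEC, against 60.3 in ETEC. The probes disagreed with TL2937, where 5 were lower and 2 higher (-1.44 to 0.11, median -0.39), and were all lower with TL2766 (-1.299 to -0.32, median -0.64). Of all measured probes, 53.0% and 49.1% were lower.

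The range of these MYOZ2 differences narrowed under the same normexp correction. With it, no MYOZ2 probe was 1.5-fold lower, and the lowest was -0.37 with TL2937 and -0.48 with TL2766. The offset of 50 is of the size of the MYOZ2 intensities themselves, so it shrinks any difference between them. The correction therefore cannot show whether these differences hold. At base 402 the probe read 16.0 in TL2937+ETEC, 6.09 in TL2766+ETEC, where it was not well above background, and 14.8 in ETEC. It was at least 1.26-fold lower with TL2766. The probes at bases 186, 267, 396, 499 and 521 were not well above background on any array.

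Beyond the members, 5 lists of genes of the actin pathway were read, with 1 value per gene from its brightest probe. The lists overlap, so they are not separate observations. VCL, ZYX and ITGA5 are in both the SRF and focal adhesion lists, and ACTB and FLNA in both the SRF and filament assembly lists. Over all 4964 and 4938 genes measured, the median difference was -0.040 with TL2937 and 0.0013 with TL2766, and 59.2% and 49.6% of them were below 0. No measured gene of these lists was 2-fold lower or higher in either culture, where 0.141% and 0.243% of all genes were at least 2-fold lower and 0.242% and 0.324% at least 2-fold higher.

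Against those shares, the SRF and MRTF targets and factors had a median of -0.26 with TL2937 over 15 measured of 16 on the array (13 below 0). With TL2766 it was -0.15 (12 below 0). The immediate-early factor EGR1 was dim, with 41.8 in TL2937+ETEC and 40.1 in TL2766+ETEC, against 64.8 in ETEC, or 1.55- and 1.62-fold lower. The matrix protein THBS1 read 76352 in TL2937+ETEC and 81217 in TL2766+ETEC, against 113598 in ETEC, and its 4 probes lay between -0.57 and -0.43 with TL2937. The matricellular gene CTGF, named CCN2 on the array, read 18202 and 17902 in the lactobacillus cultures and 26078 in ETEC. Its relative CYR61 differed by -0.35 and -0.29, while ITGA5 and CSRP2 were above 0 in both comparisons by at most 0.17.

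Among 10 focal adhesion genes, which tie actin filaments to the matrix, the median was -0.27 with TL2937 (9 below 0, where 59.2% of all genes were) and -0.16 with TL2766 (7 below 0, where 49.6% of all were). The linker VCL, which the SRF list also holds, read 29421 in TL2937+ETEC and 31687 in TL2766+ETEC, against 41659 in ETEC, 1.42- and 1.31-fold lower. TLN1 (talin) differed by -0.32 and -0.25, the integrin ITGB1 by -0.25 and -0.21, ZYX by -0.29 and -0.15, and the kinase SRC, at a level of 31.2 and 35.8 in the lactobacillus cultures and 41.0 in ETEC, by -0.40 and -0.20.

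Of the actin filament assembly and crosslinking genes, 28 of 29 measured were below 0 with TL2937 and 23 of 30 with TL2766, with medians of -0.15 and -0.067. The share of all genes below 0 was 59.2% with TL2937 and 49.6% with TL2766. The leading genes included PDLIM1 (-0.37 and -0.33), the severing protein GSN (-0.33 and -0.31), LIMA1 (-0.40 and -0.17) and ACTN1 (-0.30 and -0.18). The beta actin gene ACTB itself differed by -0.26 and -0.20, and the capping protein CAPZA1 was above 0, by 0.14 and 0.21.

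The 13 genes of actomyosin regulation had medians of -0.11 with TL2937 and -0.039 with TL2766. CNN2, the broadly expressed calponin, read 20086 in TL2937+ETEC and 22053 in TL2766+ETEC, against 27627 in ETEC. RHOB differed by -0.26 and -0.24, DIAPH1 by -0.28 and -0.20, and MYH10 by -0.17 and -0.20. MYLK, the kinase that phosphorylates MYL9, was higher on its brightest probe, at 26026 in TL2937+ETEC and 27773 in TL2766+ETEC, against 21620.3 in ETEC. Its probes disagreed, since 6 of 9 detected were below 0 with TL2937 and 7 of 9 with TL2766, and the one at base 2542 read 16.4 in TL2937+ETEC and 19.0 in TL2766+ETEC, against 45.0 in ETEC.

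Most striated sarcomere genes were dim or undetected. Of 27 on the array, 15 were measured with TL2937 and 13 with TL2766, with medians of -0.10 and -0.064. On their brightest probes MYOT, a Z-disc protein, differed by -0.76 and -0.38, and its partner LDB3 by -0.24 and -0.38. The MYOT probe was dim, at 45.4 in ETEC. Of 22 MYOT and 12 LDB3 probes, 2 of each were detected on all 3 arrays, and each pair differed in size. The other MYOT probe was at -0.21 and -0.16, and the other LDB3 probe at -0.87 and -0.92. The muscle creatine kinase CKM was higher on its brightest probe, by 0.25 and 0.35, but its other 4 detected probes were all below 0 in both cultures (down to -0.27 with TL2937 and -0.14 with TL2766). ACTA1 differed by -0.35 and -0.20 on its brightest probe, at base 1023, and 10 of its 16 probes were well above background on all 3 arrays. Of the 7 that start at base 1217 or later, 1 was, at 56.9 in ETEC. MYH7 differed by -0.32 and -0.23, and its other detected probe was at 0.14 with TL2937. The light chain MYL1 and the troponin TNNI1 were well above background on the ETEC array alone, so they are not among the measured genes.

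**Figure D4:**
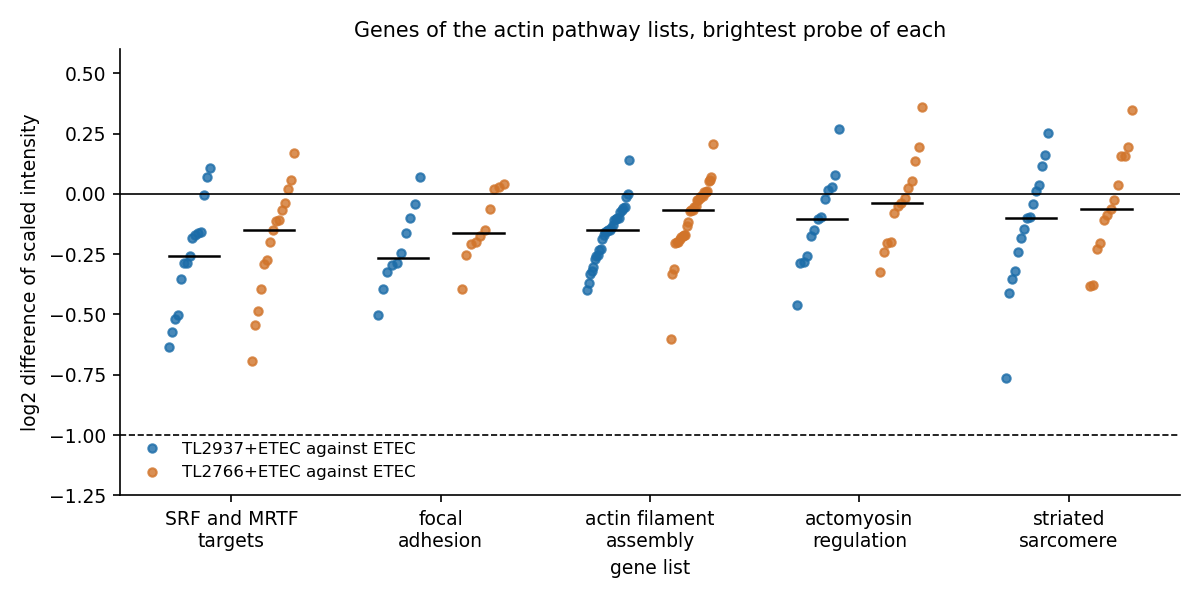
Log2 difference of scaled intensity from ETEC for each measured gene of 5 actin pathway lists (brightest probe), with TL2937+ETEC (blue) left of TL2766+ETEC (orange). Black bars are medians, the dashed line is 2-fold lower, and no gene reaches it.

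The genes whose brightest probe moved most like that of TPM1 across the 3 arrays were SLC1A1, IRS1, MAB21L1, STRA6, SLC2A12 and SFRP5, by Euclidean distance over the differences of both lactobacillus cultures from ETEC (0.065 to 0.33). The glutamate transporter SLC1A1 was nearest, with 69.4 in TL2937+ETEC and 78.9 in TL2766+ETEC, against 165 in ETEC. The retinol transporter STRA6 read 452 in TL2937+ETEC and 480 in TL2766+ETEC, against 1208 in ETEC, but its probes disagreed, with differences up to 0.60 with TL2937. Likeness over 3 arrays is a weak measure, and both differences rest on the same ETEC array.

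Marker levels of other cell types are given beside these differences, and their part in them was not tested. The summed scaled intensity was 226796 and 232808 in the lactobacillus cultures and 217852 in ETEC over 11 endothelial markers. Of the 11 measured with TL2937, 6 were above 0 and 5 below, and of the 10 measured with TL2766, 7 were above and 3 below. SELP read 15795 and 15777 against 4942 in ETEC, SELE 19507 and 22936 against 14544, TEK 2419 and 2189 against 1340, and KDR 798 and 753 against 532. PECAM1, CDH5 and ENG were below ETEC in both cultures on their brightest probe, but 3 of the 4 PECAM1 probes were above 0 in both. The sum was 488969 and 505360 against 522516 in ETEC over 9 fibroblast and myofibroblast markers. Nearly all of it came from VIM, at 242690 and 252334 against 251703, and FN1, at 242907 and 249945 against 267648. Over 4 smooth muscle markers the sum was 36589 and 39533 against 32736 in ETEC. MYLK made up 26026 and 27773 against 21620.3 of that sum, while DES was lower by 0.19 and 0.21 log2 units. Over 9 skeletal muscle markers it was 21101 and 23209 against 26310.2, of which ACTA1 made up 19291 and 21400 against 24639. That ACTA1 value is from the probe at base 1023, while the one at base 1328 read 40.9 and 41.2 against 56.9. The ACTA1 probe at base 644 was 93.3% identical to an ACTA2 probe. Whether the ACTA1 signal came from other actins was not tested, so this sum cannot be assigned to skeletal muscle markers alone. The median difference of the 4 measured skeletal muscle markers was 0.024 and 0.041. The sum was 3241 and 3288.0 against 4354 over 14 epithelial markers, and 780.1 and 808 against 684 over 7 leukocyte markers. Most of the epithelial sum came from CLDN1, at 2196 and 2192 against 3053, and OCLN, at 922 and 967 against 1141. Most of the leukocyte sum came from CD14, at 723 and 741 against 623, and PTPRC was not above background on any array. Among skeletal muscle regulators MYOD1, MYF5 and MYF6 were not above background on any array. MYOG read 1145 and 1096 in the lactobacillus cultures and 1051 in ETEC, but 1 of its 2 probes was detected on all 3 arrays. PAX7 read 237 and 254 in the lactobacillus cultures and 250 in ETEC. Of 9 reference genes, 6 were below 0 with TL2937 and 4 with TL2766, with medians of -0.086 and 0.0043.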

How the data were processed

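RNA of 3 PIE cell cultures was labelled with Cy3 (200 ng each, per the labels' protocols) and hybridised to 3 arrays of 1 slide, so that the group cannot be told apart from the culture or the array's place on the slide. Per the file headers, the authors' processed intensity came from Feature Extraction 10.7.3.1, with spatial background subtraction, detrending within each array and surrogate values near 0. No normalization between arrays is recorded. Mean and local background intensities were deposited unsubtracted. The value table of the authors held the processed intensity rounded (within 0.5%, medians 37.7, 35.7 and 34.1 for TL2937+ETEC, TL2766+ETEC and ETEC), so it is linear, uncentred and runs the same way.

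The 75th percentile of log2 processed intensity over non-control spots was subtracted on each array. Outlier spots (9, 4 and 8) were left out, no spot was saturated, and spots of a probe were averaged. A probe was called where it was at least 2-fold different and well above background on both arrays. A probe above background on only 1 of them was given a bound against the lowest detected signal of the dim array. Where its own dim value was higher, the plain ratio to that value was given, which is not a bound. Symbols came from the array design, while a RefSeq table of Sscrofa11.1 named 3904 probes by accession and 72 by synonym. Array names are those of the design and can be old. No test was made with 1 array per group. The array states no genome build, so no genome coordinates are given.

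The members and gene lists were chosen with earlier results of these data known. Named list genes were up to 5 per pathway list with the largest mean difference among those well above background on all 3 arrays, the 3 brightest per marker list and the 6 genes most like TPM1. Any other gene was picked with its values in view. A gene that this rule names and a pair of probe sequences are not reported here. The alternatives were other background correction, scaling, filters, naming and a 1.5-fold threshold. The steps were tested on simulated data with planted differences. R 4.3.3 with limma 3.58.1 gave the normexp and quantile values, and Python 3.11.15 with pandas 2.3.3, numpy 2.4.6 and matplotlib 3.10.9 the rest.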

Additional observations from a re-analysis of the deposited data

How the results depend on the processing

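The median difference of the 21 TPM1 probes from ETEC stayed between -1.05 and -0.98 with TL2937 and between -1.07 and -1.05 with TL2766 under normexp correction, quantile scaling, scaling by the median of detected probes, the authors' table, both other background filters, outlier spots kept and array gene names only, and all 21 probes stayed below 0 under the 5 ways of scaling. Over 11 probes that share no run of 20 bases, an alternative chosen after seeing the data, it was -1.07 and -1.10. Restricted, likewise after seeing the data, to probes starting above base 800 it was -0.77 with TL2937 and -0.79 with TL2766, and to those up to base 800 -1.16 with TL2766. At 1.5-fold the called member probes were 26 with TL2937 and 29 with TL2766, in place of 12 and 14 at 2-fold. All of them were lower, and 21 in each comparison were TPM1 probes. Of all measured probes, 2.34% with TL2937 and 2.21% with TL2766 were at least 1.5-fold lower, and 2.11% and 1.67% at least 1.5-fold higher. Without a background filter, 3 dim probes passed 2-fold between the lactobacillus cultures, in place of 0. Of 145 values for the other genes' medians, 137 moved by less than the median spread between spots and 8 by more, all of CNN1 or MYOZ2. All 75 list medians moved by less, but that spread (0.078 with TL2766) is larger than several of them, such as -0.039 for actomyosin regulation. It therefore cannot show that their sign holds. Between the lactobacillus cultures the striated sarcomere median ran from -0.091 to 0.0048. Under quantile scaling, 25 of 29 actin filament assembly and crosslinking genes were below 0 with TL2937 and 20 of 30 with TL2766. With normexp correction the medians of MYOZ2 were -0.22 in both comparisons, against -0.39 and -0.64, and the CNN1 probe was at -0.20, against -0.83. The offset of 50 in that correction shrinks any difference between such dim intensities. Signal over background limits CNN1, MYOZ2 and TPM2, and the lack of replicate cultures limits every value. No paired analysis was possible because each group has 1 array.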

Other observations

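Sarcomere and crosslinking genes that were well above background on the ETEC array alone were not counted in the medians of the lists. The fast muscle light chain MYL1 read 9.05 in TL2937+ETEC and 5.98 in TL2766+ETEC, against 64.4 in ETEC, on its brightest probe, and was well above background on the ETEC array alone. Against the lowest detected signal that is at least 5.58-fold lower with TL2937 and at least 5.47-fold lower with TL2766. Of its 15 probes, 2 were well above background on any array. The slow troponin TNNI1 was at least 1.62-fold lower with TL2937 and, by the ratio to its own dim value, 1.55-fold lower with TL2766. The tropomodulin TMOD2, which caps the pointed end of actin filaments together with tropomyosin, was at least 1.35-fold and 1.32-fold lower. TNNI1 and TMOD2 were both at the edge of detection. These genes were singled out with their values in view. Picking genes detected on the ETEC array alone sets their direction, so that they read lower with lactobacilli is not a result. In the same lists MYH2 went the other way with TL2766, detected there but not in ETEC, and was at least 1.04-fold higher. The share of all genes detected on only 1 array was not counted.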
